A study of Homo sapiens with 4 samples.

Results

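Tryptophan-kynurenine enzymes and the genes of the aryl hydrocarbon receptor (AHR) were followed in 143B cells, a human osteosarcoma line, after siRNA against CBX3. The 10 genes, of 37450 features in the count table, are the enzyme genes TDO2, AFMID, KYNU and QPRT, the receptor genes AHR, ARNT and AHRR, and the AHR target genes CYP1A1, CYP1B1 and TIPARP. They were selected on earlier results of the same comparison, in which TDO2 had the largest difference of the group, so their values are given as a description, with no test. All 10 were found in the table.

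The cells were grown in serum-containing DMEM, transfected with siRNA by a lipid reagent and taken for RNA at day 2. The control group (siNC, labelled wild type) had 2 libraries from cells with the siRNA labelled NC, and the knockdown group (siCBX3, labelled CBX3 knockdown) also had 2. All came from 1 cell line. CBX3 encodes a heterochromatin protein that binds methylated histone H3. The number and sequences of the siRNAs are not given in the sources used here, so effects of CBX3 loss and of other targets of the siRNA cannot be told apart. Total counts were between 36509298 and 40336907 per library. CBX3 itself had 20311 and 21384 counts in siNC against 2020 and 2163 in siCBX3 (log2 fold change -3.19, adjusted p 2.73e-20, edgeR quasi-likelihood test). The mesenchymal markers VIM and SPARC were abundant in every library, while the bone alkaline phosphatase gene ALPL was at 0.0531 CPM in siNC and 0.0528 CPM in siCBX3. Summed marker levels moved between groups, from 1159 and 1183 to 3406 and 3319 CPM for 8 mesenchymal genes, from 1291 and 1287 to 782 and 796 CPM for 6 epithelial genes, and from 438 and 405 to 663 and 601 CPM for 7 leukocyte genes, nearly all of it CD68. Their part in the results that follow was not tested.

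Most dietary tryptophan that is not built into protein is broken down along the kynurenine route. TDO2 in liver, or IDO1 and IDO2 in other tissues, opens the indole ring, and AFMID removes the formyl group to give kynurenine. Kynurenine then goes to kynurenic acid by aminotransferases, or through KMO, KYNU and HAAO to quinolinic acid, which QPRT turns into a precursor of NAD. Kynurenine and related compounds can bind AHR, a transcription factor held in the cytosol with HSP90 until a ligand is bound. In the nucleus it pairs with ARNT at xenobiotic response elements, whose core is GCGTG, and raises CYP1A1, CYP1B1, TIPARP and AHRR. AHRR and TIPARP in turn restrain the receptor.

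The start-site windows of 5 genes are shown because they set the 2 enzyme genes with the largest differences beside AHR and 2 of its targets. RefSeq (GRCh38.p14) gave windows from 250 bases before to 50 after the start for 9 of the 10 genes, and CYP1B1 was not matched. Each sequence runs 5′ to 3′ on the gene's strand, in lower case, with every GCGTG, on either strand, in capitals. The windows are chr4:155903446-155903745 (plus strand, TDO2), chr2:142877414-142877713 (plus, KYNU), chr7:17298402-17298701 (plus, AHR), chr15:74725479-74725778 (minus, CYP1A1) and chr3:156674340-156674639 (plus, the most upstream of 3 TIPARP starts).
TDO2: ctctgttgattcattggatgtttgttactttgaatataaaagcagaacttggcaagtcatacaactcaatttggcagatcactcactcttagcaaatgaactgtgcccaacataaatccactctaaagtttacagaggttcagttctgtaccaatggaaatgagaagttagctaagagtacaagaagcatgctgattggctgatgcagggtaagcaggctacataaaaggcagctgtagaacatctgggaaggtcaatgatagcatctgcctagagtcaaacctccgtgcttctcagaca
KYNU: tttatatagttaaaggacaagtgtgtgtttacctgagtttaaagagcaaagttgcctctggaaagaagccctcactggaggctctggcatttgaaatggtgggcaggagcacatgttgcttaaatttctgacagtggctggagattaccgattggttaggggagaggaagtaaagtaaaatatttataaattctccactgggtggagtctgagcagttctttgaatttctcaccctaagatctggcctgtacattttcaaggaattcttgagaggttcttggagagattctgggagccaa
AHR: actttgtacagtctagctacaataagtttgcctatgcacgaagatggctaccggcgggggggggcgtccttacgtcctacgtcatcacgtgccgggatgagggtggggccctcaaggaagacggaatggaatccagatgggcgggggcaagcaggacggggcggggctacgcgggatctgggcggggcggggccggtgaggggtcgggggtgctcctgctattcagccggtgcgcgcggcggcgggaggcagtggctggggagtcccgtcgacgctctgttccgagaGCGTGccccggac
CYP1A1: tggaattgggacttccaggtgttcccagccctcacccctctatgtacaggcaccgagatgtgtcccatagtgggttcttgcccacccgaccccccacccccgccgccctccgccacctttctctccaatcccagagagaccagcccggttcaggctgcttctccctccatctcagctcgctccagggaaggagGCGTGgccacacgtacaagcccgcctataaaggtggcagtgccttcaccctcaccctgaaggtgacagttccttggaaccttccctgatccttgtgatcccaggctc
TIPARP: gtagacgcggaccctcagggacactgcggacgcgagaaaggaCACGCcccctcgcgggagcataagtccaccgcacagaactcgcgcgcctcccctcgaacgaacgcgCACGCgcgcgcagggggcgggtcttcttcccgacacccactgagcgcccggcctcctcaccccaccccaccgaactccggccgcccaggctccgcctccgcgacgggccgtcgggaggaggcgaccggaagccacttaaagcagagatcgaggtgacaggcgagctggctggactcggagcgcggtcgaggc

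The TDO2 and KYNU windows held no GCGTG, and the AHR and CYP1A1 windows held 1 each. The RefSeq start of TDO2 lies inside the counted feature, which begins further upstream at 155854738, and the sequence at that end was not examined. The TIPARP window shown held 2, both on the opposite strand, while the TIPARP windows that begin at 156674676 and 156676414 held 0. Over the 9 genes, 5 had at least 1 copy in a window (AFMID, AHR, AHRR, CYP1A1 and TIPARP), and QPRT, AHRR and TIPARP have more than 1 window each. Counted by window, 6 of 13 held a copy, against 36.5% of the 35116 RefSeq windows. The longer element TNGCGTG was in 1 window of AHRR and in 5.51% of all windows. TDO2 and KYNU windows were poorer in G and C, at 41.3% and 42.3%, than the median window of 58.7%. A match in these windows is a match of letters only, and the enhancers of CYP1A1 lie further upstream than the window reaches.

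TDO2, which encodes tryptophan dioxygenase, had 10 and 16 counts in siNC against 2558 and 2536 in siCBX3. This was 0.265 and 0.380 CPM (counts scaled to library size, with TMM factors) against 72.6 and 66.9 CPM. The groups did not overlap, and both siCBX3 libraries stood far above both siNC libraries. The mean went from 0.323 ± 0.0809 to 69.7 ± 4.0 CPM (SD, n = 2 per group), 216-fold higher, with a log2 fold change of 7.73 (SE 0.16). Of 20999 genes tested, 4 had a larger fitted log2 fold change, each with 0 counts in both siNC libraries, so that their fitted values depend on the prior count. TDO2 (chromosome 4, 155854738 to 155920406, plus strand, GRCh38) shared no exon bases with another feature of the table. In bulk RNA, more cells with a transcript and more transcript per cell cannot be told apart. The siNC level of TDO2 rests on few counts, and without siNC replicate 2 the log2 fold change was 8.02.

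KYNU, the kynureninase gene, had 4 counts in each siNC library, against 104 and 162 with siCBX3. Its level was 0.106 and 0.0950 CPM in siNC against 2.95 and 4.27 CPM in siCBX3, without overlap. The log2 fold change was 5.13 (SE 0.39), a 35.9-fold difference in mean CPM from 0.101 ± 0.00793 to 3.61 ± 0.936 (SD, n = 2). The 2 siCBX3 libraries differed from each other more for KYNU than for TDO2, with siCBX3 replicate 2 the higher. KYNU passed the filter on low counts through the siCBX3 libraries alone, so it could enter the fit only if it was higher there.

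AFMID, the arylformamidase gene, was lower in both siCBX3 libraries. It had 411 and 419 counts in siNC against 205 and 256 in siCBX3, or 10.9 and 9.95 against 5.82 and 6.75 CPM. The groups did not overlap, and the log2 fold change was -0.73 (SE 0.14). QPRT, the quinolinate phosphoribosyltransferase gene, had 14 and 26 counts in siNC against 14 and 14 in siCBX3. Its groups overlapped, with a log2 fold change of -0.38 (SE 0.50), and the siNC mean rested on replicate 2: without that library the log2 fold change was 0.046. QPRT shares 15.7% of its exon bases with AC009133.22, which had at most 4 counts per library. The fitted difference of QPRT was smaller than its SE. The 4 enzyme genes therefore did not share a direction.

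**Figure D1:**
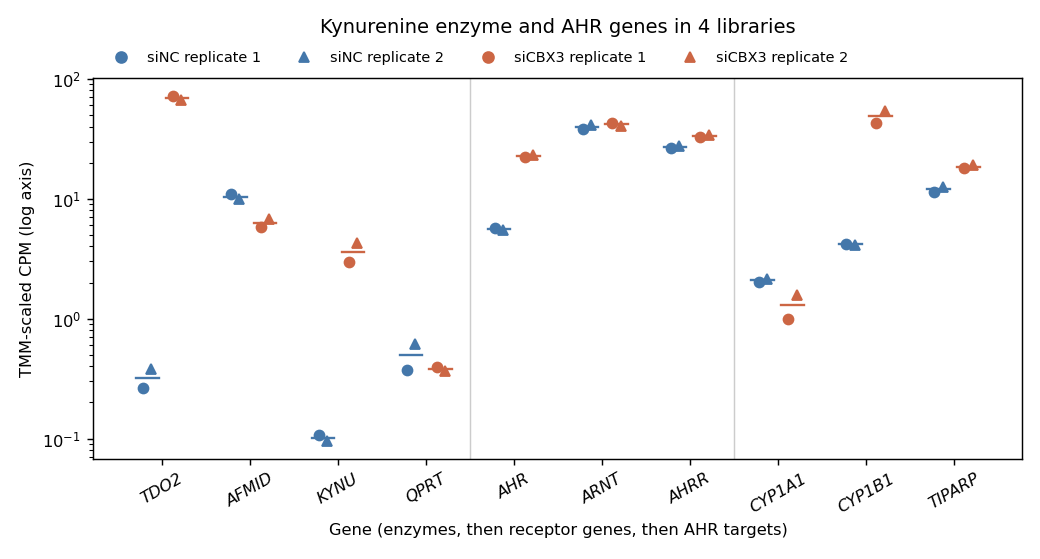
TMM-scaled CPM on a log axis for the 10 genes, with 1 point per library, circles for replicate 1, triangles for replicate 2 and a bar at each group's mean. TDO2 (0.265 and 0.380 against 72.6 and 66.9 CPM), KYNU, AHR and CYP1B1 are separated widely, AFMID and CYP1A1 are lower in siCBX3, and QPRT and ARNT overlap.

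Levels of different genes were compared as the deposited RPKM, which divides by gene length. In siNC TDO2 was second lowest of the 10 genes at 0.0631 ± 0.0173 RPKM, above KYNU at 0.00586 ± 0.000322 RPKM (SD, n = 2). In siCBX3 TDO2 was the highest at 12.9 ± 0.613 RPKM, above CYP1B1 at 7.87 ± 1.33 and ARNT at 6.21 ± 0.200 RPKM. The full siNC order of mean levels was ARNT, AHRR, AFMID, TIPARP, AHR, CYP1B1, CYP1A1, QPRT, TDO2 and KYNU, and of these neighbours only AFMID (2.64 ± 0.109) and TIPARP (2.45 ± 0.216 RPKM) had overlapping libraries. In siCBX3 the order was TDO2, CYP1B1, ARNT, AHRR, TIPARP, AHR, AFMID, CYP1A1, KYNU and QPRT, with no overlap between neighbours. The spread of 2 libraries is a weak guide to such order. It also depends on the exon length counted: by CPM, KYNU was above CYP1A1 in siCBX3 (means 3.61 and 1.29).

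The step from TDO2 to AFMID changed its balance. The ratio of TDO2 to AFMID in RPKM was 0.0187 and 0.0294 under siNC, against 9.60 and 7.62 under siCBX3. The ratio of AFMID to KYNU went the other way, from 447 and 455 to 8.57 and 6.87. KYNU remained below TDO2 in siCBX3, with TDO2 82.2 and 52.3 times its RPKM. RPKM divides by the counted exon length, 17600 bases for KYNU against 5264 for TDO2 and 4048 for AFMID. Ratios over KYNU are therefore larger in RPKM than in CPM, where siCBX3 had 2.95 and 4.27 for KYNU against 72.6 and 66.9 for TDO2. All are ratios of transcript levels and say nothing of enzyme activity.

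Other enzyme genes of the route moved in both directions. Their list and the later ones were set with earlier results of these data known, so the counts of each are a description. Of 13 listed genes from kynurenine to NAD, 10 were tested, 3 were called higher and 3 lower, with a median log2 fold change of 0.14 against -0.006 over all genes tested. Called means an adjusted p under 0.05 in the edgeR fit over all genes, which holds for 24.4% of genes tested as higher and for 24.0% as lower (48.4% in either direction). The same rule counts 6 of the 10 chosen genes as higher and 2 as lower, but they were selected on this comparison and nothing is read from that count. The NAD synthesis genes NMNAT2 (log2 fold change 0.78, adjusted p 1.04e-07) and NADSYN1 (0.64, adjusted p 7.77e-06) rose. KMO, kynurenine monooxygenase, rose from 9 and 21 counts to 38 and 36 (1.43, adjusted p 0.00873). In siNC only replicate 2 reached the level set by the filter on low counts (0.263 CPM). KMO therefore needed the siCBX3 libraries, where it was higher, to enter the fit. It shares 28.4% of its exon bases with OPN3 on the opposite strand, and it was not called (adjusted p 0.101) when siNC replicate 1 was left out, nor (0.0536) when siCBX3 replicate 1 was. The aminotransferase genes AADAT (-0.45, adjusted p 0.0132), KYAT1 (-0.42, adjusted p 0.0424) and GOT2 (-0.20, adjusted p 0.0476) fell. DESeq2 called none of these 3. GOT2 was called without siNC replicate 2 only, among the 4 fits that leave out a library (adjusted p 0.158 to 0.238 in the others). AADAT was also not called when siNC replicate 1 (adjusted p 0.0503) or siCBX3 replicate 1 (adjusted p 0.0545) was dropped, nor KYAT1 when any 1 of the 4 libraries was (adjusted p 0.0854 to 0.12).

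The other genes that open the tryptophan ring were near 0. IDO1 had 4 and 1 counts in siNC and 0 in both siCBX3 libraries, and IDO2 had 0 in all 4. TDO2 was thus the only 1 of the 3 dioxygenase genes with over 4 counts in any library. HAAO, next to KYNU in the route, had a log2 fold change of -0.45 and was not called (adjusted p 0.0512), and its value turned on the siCBX3 libraries: it was -0.80 without replicate 1 (adjusted p 0.00141) and -0.15 without replicate 2 (adjusted p 0.597). ACMSD, which diverts the route before QPRT, had 18 and 20 counts against 29 and 20 (0.50, adjusted p 0.379). Liver is the main site of TDO2, and the summed level of 7 hepatocyte marker genes was 1.96 and 2.42 CPM in siNC against 2.75 and 3.01 CPM in siCBX3. Only 2 of the 7 were tested and neither was called: SERPINA1 had a log2 fold change of 0.45 (adjusted p 0.182) and TTR of 0.34 (adjusted p 0.603). The other 5 had too few counts to give a direction. APOA1 had 0 and 2 counts in each group. HNF4A had 0 and 4 in siNC against 0 and 6 in siCBX3, and TAT had 6 and 3 against 7 and 6. FGB had 2 and 0 against 2 and 12, and ALB had 8 and 12 against 0 and 6.

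**Figure D2:**
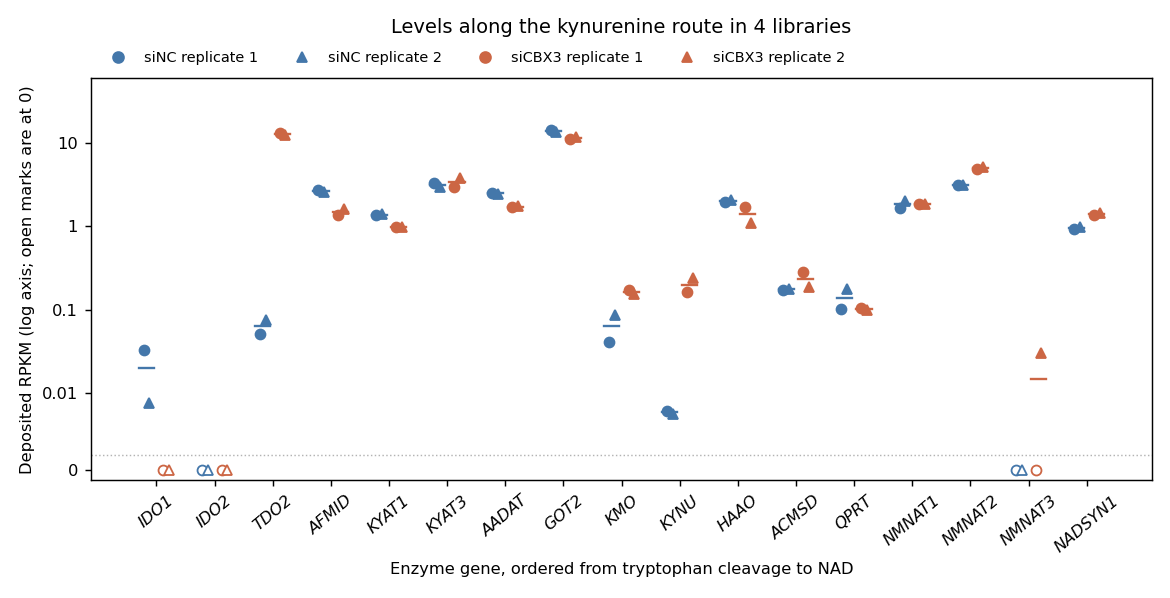
Deposited RPKM on a log axis for 17 enzyme genes from tryptophan cleavage to NAD, with 1 point per library, bars at group means and open marks for libraries at 0. IDO1 and IDO2 sit at or near 0, TDO2 goes from 0.0631 to 12.9 RPKM, and in siCBX3 KMO and KYNU average 0.166 and 0.200 RPKM.

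AHR, the ligand-binding receptor gene, was about 4 times higher in siCBX3. It had 214 and 231 counts in siNC against 787 and 875 in siCBX3, or 5.68 and 5.48 against 22.3 and 23.1 CPM. The libraries of each group lay close together and the groups did not overlap. The mean was 5.58 ± 0.139 against 22.7 ± 0.538 CPM (SD, n = 2), with a log2 fold change of 2.03 (SE 0.12). The feature RP11-507K12.1 shares 35.6% of AHR's exon bases on the same strand and had a log2 fold change of 1.99, so the 2 counts may not be separate measurements. How the shared bases bear on the RPKM of AHR, its rank and its ratios to other genes was not tested.

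ARNT, the partner of AHR on DNA, had 1448 and 1748 counts in siNC against 1512 and 1532 in siCBX3. These are 38.4 and 41.5 against 42.9 and 40.4 CPM, and the groups overlapped. Its log2 fold change was 0.059 (SE 0.09) and changed sign with library totals in place of TMM scaling (-0.021). The level of AHR relative to ARNT in RPKM was 0.145 and 0.129 in siNC and 0.509 and 0.559 in siCBX3.

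AHRR, the repressor that competes with AHR for ARNT, had 26.4 and 27.7 CPM in siNC against 32.5 and 34.2 CPM in siCBX3. The groups did not overlap, but the log2 fold change was small at 0.30 (SE 0.09) and 0.22 with library totals. On RPKM with 1 added it was 0.18. Its exons share 3.18% of their bases with PDCD6, a more abundant gene on the same strand that had a log2 fold change of -0.40. AHR was at 0.248 and 0.228 of the AHRR level in RPKM in siNC and at 0.792 and 0.778 in siCBX3.

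The 3 classical AHR targets differed from one another. CYP1B1, a monooxygenase of steroids and aromatic hydrocarbons, had 158 and 174 counts in siNC against 1522 and 2051 in siCBX3. Its level went from 4.19 and 4.13 CPM to 43.2 and 54.1 CPM, 11.7-fold higher by the means, with a log2 fold change of 3.55 (SE 0.12). The groups were far apart, and siCBX3 replicate 2 was the higher of its pair. The transcripts CYP1B1-AS1 and RMDN2, on the opposite strand, share 11.3% and 1.6% of its exon bases. CYP1B1-AS1 had 71 and 65 counts in siNC against 110 and 136 in siCBX3. Whether CYP1B1 shares reads with these transcripts was not tested.

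CYP1A1, the gene most often used as a readout of AHR, was not higher. It had 76 and 91 counts in siNC against 35 and 60 in siCBX3, or 2.02 and 2.16 against 0.993 and 1.58 CPM. The groups did not overlap, and the log2 fold change was -0.69 (SE 0.28). It was -1.07 when siCBX3 replicate 2 was dropped and -0.40 when siCBX3 replicate 1 was. The ratio of CYP1B1 to CYP1A1 in RPKM was 1.19 and 1.09 in siNC and 24.8 and 19.5 in siCBX3. TIPARP, an ADP-ribosyltransferase that limits AHR signalling, had 11.5 and 12.6 CPM in siNC against 17.9 and 19.0 CPM in siCBX3, without overlap, with a log2 fold change of 0.62 (SE 0.11).

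A wider list of AHR targets also went both ways. Of 15 listed genes 9 were tested, 3 were called higher and 3 lower, beside 24.4% and 24.0% of all genes tested. The median was 0.43 against -0.006 over all genes. This median includes ALDH3A1 (0.86, adjusted p 0.226), which had 8 and 10 counts in siNC against 16 and 14 in siCBX3. ALDH3A1 passed the filter on low counts through the siCBX3 libraries alone, so it could enter the fit only if it was higher there. PTGS2, the inducible prostaglandin synthase, rose from 58 and 83 counts to 2345 and 2628 (log2 fold change 5.26, adjusted p 1.14e-20), and the quinone reductase NQO1 rose from 25.7 ± 2.62 to 50.3 ± 1.02 CPM (0.97, adjusted p 2.98e-09). The cytochrome gene CYP2S1 fell from 8.96 ± 0.316 to 3.34 ± 0.326 CPM (-1.42, adjusted p 4.12e-08), and the efflux pump gene ABCG2 from 6.59 ± 0.661 to 2.59 ± 0.215 CPM (-1.34, adjusted p 6.90e-07). NFE2L2, which encodes NRF2, rose by 0.43 (adjusted p 0.000156). These genes have other regulators too, and the part of AHR in their values was not tested. CYP1A2, UGT1A1, UGT1A6, GSTA1 and EREG had at most 6 counts in any library.

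The AHR complex and its partners were all measured. Of 19 listed genes 10 were called higher and 3 lower, beside 24.4% and 24.0% of all genes tested, with a median of 0.37. The nuclear factor RELB (1.33, adjusted p 5.44e-10), the cofactor genes NRIP1 (1.29, adjusted p 1.70e-12) and NCOA3 (0.99, adjusted p 2.00e-10), and EPAS1 (0.99, adjusted p 3.78e-08), a hypoxia factor that shares ARNT, rose. Of the chaperone genes of the cytosolic complex, HSP90AA1 fell from 5449 ± 151 to 3671 ± 296 CPM (-0.57, adjusted p 1.50e-06), PTGES3 fell by 0.50 (adjusted p 4.72e-06) and HSP90AB1 had -0.09 (adjusted p 0.334). HSP90 genes have near-identical copies elsewhere in the genome, so their counts are uncertain. On RPKM with limma, 5 genes of this list were called higher in place of 10.

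In the list of transport genes for tryptophan and kynurenine, also set with earlier results known, most of the tested genes fell. Of 8 listed genes 6 were tested, 4 were called lower and 1 higher, beside 24.0% and 24.4% of all genes tested. The median was -0.82. SLC7A5, the large neutral amino acid carrier, fell from 5194 and 6886 counts to 770 and 790 (-2.82, adjusted p 7.29e-18), and its partner SLC3A2 by 0.61 (adjusted p 1.32e-06). The aromatic amino acid carriers SLC16A10 (-1.59, adjusted p 1.06e-05) and SLC7A8 (-1.03, adjusted p 1.09e-08) fell as well. SLC7A11, the cystine and glutamate exchanger, rose by 0.67 (adjusted p 0.00104), a call that ended on RPKM with 1 added (adjusted p 0.113).

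Genes of NAD salvage and of other uses of tryptophan were mixed. Of 7 tested salvage and nicotinamide genes 2 were called higher and 1 lower, beside 24.4% and 24.0% of all genes tested. The median was 0.25. NNMT, which methylates nicotinamide, rose from 2.72 ± 0.317 to 12.9 ± 1.74 CPM (2.24, adjusted p 1.41e-11), NAMPT, which recycles it, from 58.1 ± 3.5 to 182 ± 22.8 CPM (1.65, adjusted p 7.60e-14), and PNP fell by 0.34 (adjusted p 0.000505). Of 6 tested genes of other tryptophan use 2 were called higher and 1 lower, beside the same shares, with a median of -0.03. Among the 6, AANAT (-0.70, adjusted p 0.38), with 10 and 15 counts in siNC against 5 and 9, passed the filter through the siNC libraries alone. The serotonin pathway gene TPH1 rose by 0.88 (adjusted p 0.000716), MAOA fell by 1.23 (adjusted p 2.06e-05) and the mitochondrial tryptophanyl-tRNA synthetase gene WARS2 rose by 0.51 (adjusted p 1.32e-05). WARS, its cytosolic counterpart, had -0.10 (adjusted p 0.336).

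**Figure D3:**
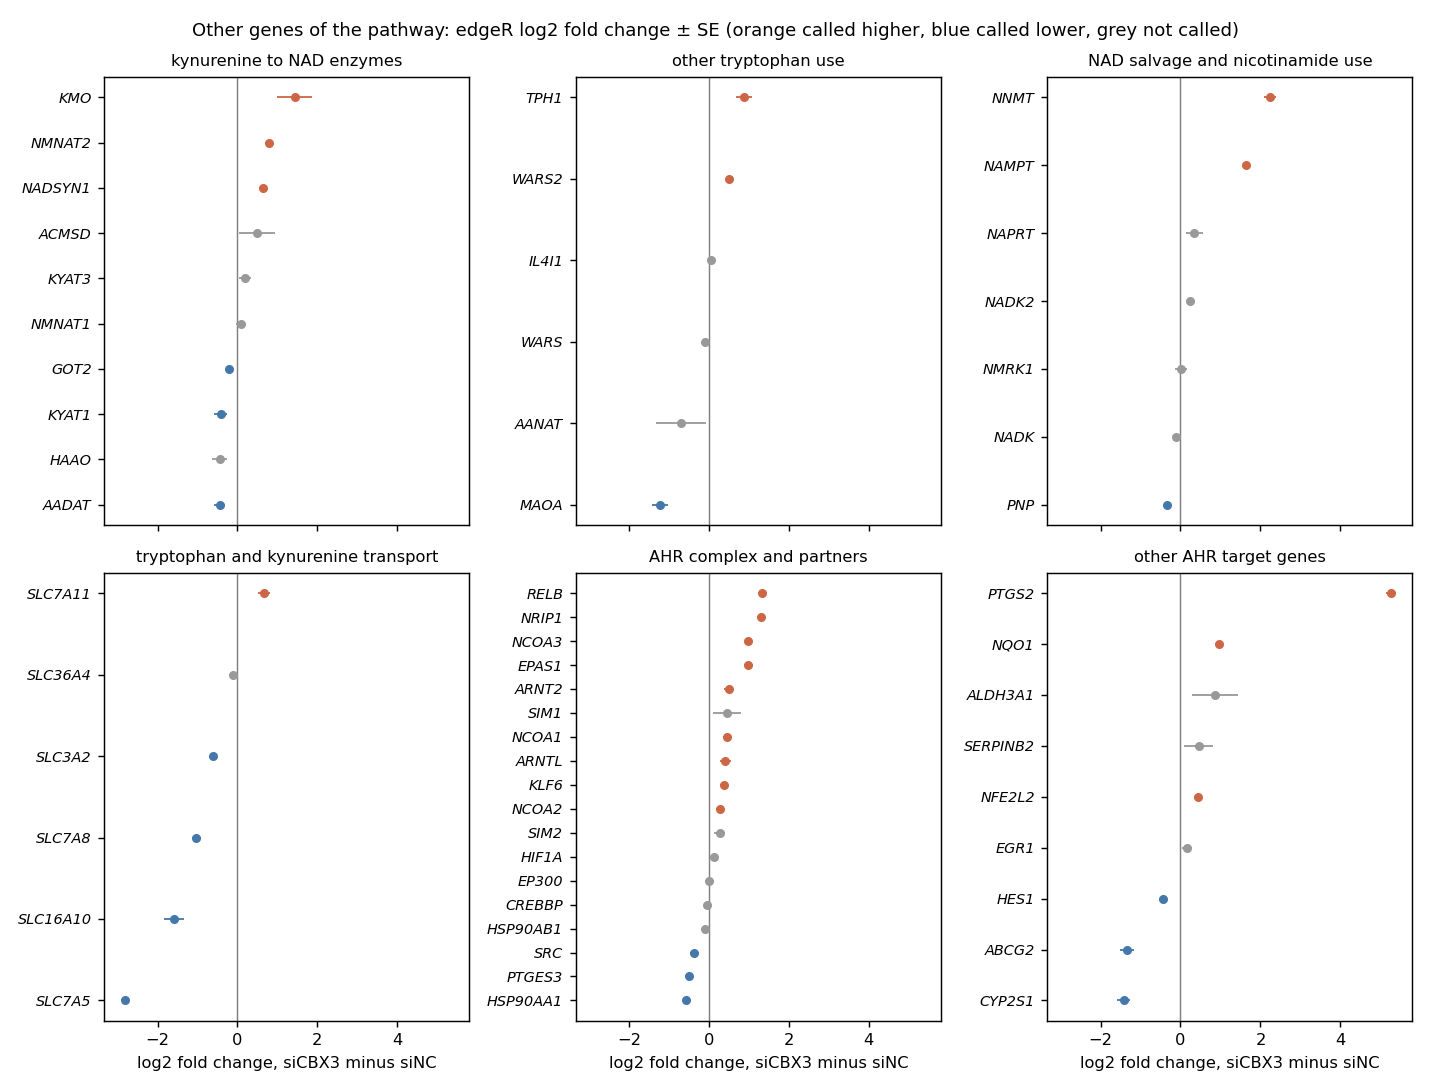
Log2 fold change (siCBX3 minus siNC) with SE from the edgeR fit for all but 1 of the tested genes of the 6 lists, coloured by call. The kynurenine and AHR target lists hold calls on both sides of 0, while 4 of 6 transport genes lie among the calls below 0, led by SLC7A5 at -2.82.

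Little was expressed around TDO2. Distances were taken from the upstream end of the counted TDO2 feature (155854738), and none from the RefSeq start further downstream. Of 13 features that start within 1 Mb of that end only 2 were tested. CTSO, a cathepsin gene that faces TDO2 from the 3′ side (155924118 to 155953917, minus strand), rose from 124 and 157 counts to 514 and 682 (log2 fold change 2.21, SE 0.14, adjusted p 4.25e-12). GUCY1A3, a guanylate cyclase subunit gene that starts 188 kb upstream of that end, had 6 and 6 counts against 10 and 12 (0.98, adjusted p 0.226). This gene passed the filter on low counts through the siCBX3 libraries alone. ASIC5, on the opposite strand across the 5′ end of the TDO2 feature, had 0 counts in all 4 libraries.

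The coding genes whose values over the 4 libraries were most like those of TDO2, by Euclidean distance of centred log2 CPM (prior count 2), were CXCL8 (distance 1.65), C8orf4 (2.14), MMP3 (2.23), PTGS2 (2.32) and CXCL1 (2.36). With 2 libraries a group this measure mostly finds genes with a large rise, and at a prior count of 0.5 only 1 of the 5 was again among the nearest. MMP3, with 8 and 4 counts in siNC against 304 and 364 in siCBX3, passed the filter on low counts through the siCBX3 libraries alone. CXCL8 went from 120 and 114 counts to 6669 and 7086, and its level in siCBX3 was 80.3 and 80.5 RPKM, above the 13.3 and 12.4 RPKM of TDO2.

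**Figure D4:**
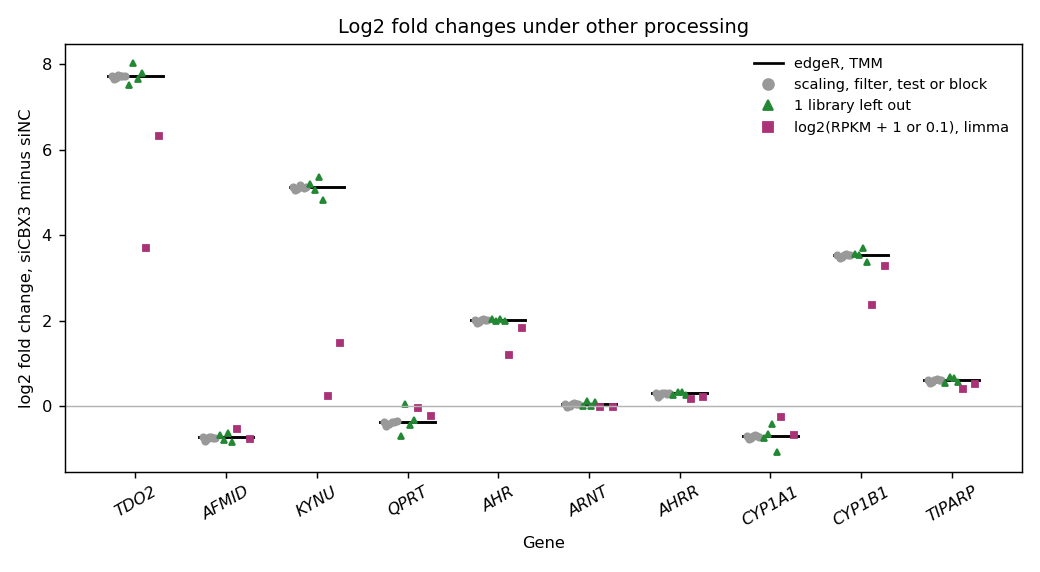
Log2 fold changes of the 10 genes under each alternative, beside the edgeR value as a black line. TDO2, KYNU, AHR, CYP1B1 and TIPARP stay above 0 and AFMID and CYP1A1 below 0 in each, QPRT and ARNT lie on both sides, and adding 1 to RPKM lowers TDO2 to 3.71 and KYNU to 0.25.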

How the data were processed

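Per the labels, stranded mRNA libraries were made from total RNA. The authors deposited raw read counts per gene and RPKM values in 1 column per library. GRCh38 is named in the submitters' processing notes, along with featureCounts (Subread 1.5.1), Trimmomatic 0.36 and STAR 2.5.3a. Strand settings, shared reads and the annotation are not given in the sources used here. Nothing shows that replicates were separate cultures, so the spread behind each p may be technical only. The column names NC1 and NC2 were read as siNC replicates 1 and 2.

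Counts were filtered with filterByExpr (minimum count 10, minimum total 15), scaled by TMM and fitted in edgeR 4.0.16 (R 4.3.3) by the quasi-likelihood test, with Benjamini-Hochberg adjustment over 20999 genes. SE was derived from the fold change and its F statistic. Without a stated strand setting, reads of a gene and an antisense partner cannot be told apart. limma 3.58.1 and DESeq2 1.42.0 gave alternatives. The main edgeR fit, the DESeq2 fit and a limma fit were run on simulated data, and the other steps were not. Features were typed by GENCODE 29 or RefSeq. The genes and lists were chosen with earlier results of these data known. Genes named in a list are at most the 5 with the smallest adjusted p and the uncalled neighbours of the 10 genes in the route. HSP90AB1, PTGES3, GOT2 and ALDH3A1 fall outside this rule and were named after their values were seen. The values of 1 listed gene are not reported here, though it stays in its list's counts.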

Additional observations from a re-analysis of the deposited data

How the results depend on the processing

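The 13 alternatives were other scalings, filters and tests, 1 library left out in turn, the replicate block and log2 RPKM with limma. The 10 genes were chosen on this comparison, so only their values are given, with no call. TDO2 was 3.71 with 1 and 6.32 with 0.1 added to RPKM, and between 7.51 and 8.02 with a library left out. Calls over all genes were 4243 higher and 5917 lower with library totals (main 5132 and 5041). With the replicate number as a block they were 5371 and 5259. Deviations of libraries with the same number had a correlation of 0.0481 over 15932 genes, so the numbers were not taken as pairs, and the block turned no list's count by over 1.5 times. In the kynurenine to NAD list, calls lower were 0 with DESeq2 and 0 to 2 with a library left out. In the list of other tryptophan uses they were 1 to 2 with a library left out. Transport genes called higher were 0, and AHR partners called higher 5, on RPKM with either added value. Of the 5 genes most like TDO2, 1 was shared at a prior count of 0.5. Of 748 single-gene results of the lists, 701 stayed on their side of the threshold, 38 lost and 9 gained a call. No called gene changed sign, while the uncalled CREBBP, EP300, IL4I1, NMNAT1, NMRK1 and WARS did under at least 1 alternative. TDO2, KYNU and QPRT in siNC, with 4 to 26 counts per library, are limited by depth.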

Other observations

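Tested features that start within 1 Mb of the counted starts of the other 9 genes were tallied after the values were seen. They are given beside the 24.4% of all tested genes called higher and 24.0% called lower. Near QPRT on chromosome 16, 48 of 108 were called higher and 7 lower, with a median log2 fold change of 0.34. Near AHR on chromosome 7 it was 6 of 12 higher and 2 lower, near ARNT 17 of 68 and 9, near CYP1A1 9 of 51 and 8, and near AFMID 6 of 23 and 8. Near TIPARP it was 4 of 16 higher and 4 lower, near AHRR 5 of 20 and 9, near CYP1B1 5 of 24 and 10, and near KYNU 1 of 1 and 0. Differences between these neighbourhoods, or from the share over all genes, were not tested. Features that overlap or lie close can share reads, so these counts are not independent.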
